A study of Mus musculus with 22 samples.

Results

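Laminins and a pair of epithelial collagens, the proteins that intestinal epithelial cells place in and across their basement membrane, were followed in mouse duodenal organoids exposed to cold atmospheric plasma (CAP). The genes were chosen by name: the laminin chain genes Lama1, Lama3, Lama5, Lamb1, Lamb2, Lamb3 and Lamc1 and the collagen genes Col17a1 and Col18a1, 9 of the 52636 genes deposited. Earlier results of these data were known when the genes were chosen. Values of all 9 were deposited for the 22 libraries. Organoids are closed epithelial structures grown from intestinal crypts. They came from wild type adult mice of the outbred CD1 strain, 2 months old, and were cultured in Matrigel, a matrix rich in laminin, so that the cells met laminin protein that they had not made. The untreated group held 4 libraries, 1 from each of 4 organoid lines. Each treated group held 3 libraries, from lines 1, 2 and 4, and no treated library came from line 3. Each line came from 1 mouse. Lines 1 and 2 were at passage 12 and 14 and lines 3 and 4 at passage 4 by the labels.

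CAP is a partly ionised gas, made here as a helium jet with a power of 50 W over 60 s. For direct CAP the jet met the organoid wells at day 1 and the medium was changed after 30 min or after 24 h. In indirect CAP the organoids received medium from a treated culture, and in the groups called PAM (plasma-activated medium) they received medium treated without cells. Exposure to either medium began on day 1, with fresh medium, or on day 2, with medium made at day 1. By the study's methods these 4 groups were exposed for 24 h. The labels name no start day and give 0.5 h or 24 h for each medium. The groups labelled 0.5 h were taken to be those from day 1, and the groups labelled 24 h those from day 2. The labels do not state this match. The study's names for the groups are used here.

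Laminins are cross-shaped trimers of 1 alpha, 1 beta and 1 gamma chain that assemble inside the cell and form the sheet on which the epithelium rests. The alpha 5 chain, paired with beta 1 or beta 2 and gamma 1, is the main alpha chain of the villus basement membrane in the adult intestine, while the alpha 3 chain pairs with beta 3 in the laminin that anchors hemidesmosomes. Type XVII collagen is a transmembrane protein of hemidesmosomes. Type XVIII collagen is a heparan sulfate proteoglycan of basement membranes, and its end fragment is known as endostatin.

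Values are reads scaled to 20000000 per library (CP20M, not divided by gene length). The number of reads counted on genes was estimated at 19.4 M to 28.7 M per library (median 22.6 M), so that 1 read was worth 0.697 to 1.03 of a value. Markers of epithelium (Epcam, Cdh1, Krt8, Krt18, Krt19, Vil1 and Cdx2) summed to between 115365 and 124940 in untreated libraries and between 124732 and 197961 in treated ones, with the highest group median, 180157, with PAM from day 1. In the pooled 24 h comparison from day 1 described below, Cdh1, Krt8, Krt18, Krt19 and Vil1 were higher and Epcam lower at an adjusted p under 0.05. The summed level of 9 mesenchymal markers was 15 to 52 in untreated and 24 to 60 in treated libraries, with Dcn and Lum at or near 0. Col1a1 and Acta2 passed an adjusted p under 0.05 with indirect CAP from day 2, at means of 11 against 2.5 (adjusted p = 0.0237) and 11.7 against 4 (adjusted p = 0.0300). Both passed the filter on low values, described below, only in comparisons that held this treated group. Neither was tested in any other comparison with untreated libraries. Their adjusted p values are therefore not independent of the filter, which both genes met through high values in that group. The sum of 5 endothelial markers was 12 to 33 and 20 to 112, with Cdh5, Kdr and Emcn at or near 0. Tek, of the same list, averaged 11 in untreated libraries and 60.7 with PAM from day 1 (log2 fold change 2.48, adjusted p = 0.0119), and it was also higher in the pooled comparison (1.73, adjusted p = 0.0172). The part of these markers in the results below was not tested. The sum of 5 blood cell markers was 278 to 315 and 286 to 427, of which Csf1r made up most. The untreated libraries of lines 1 and 2 stood apart from their labels in 1 respect. After removal of the group means they correlated with treated libraries of their own line at a median of 0.131 and with those of the other of these lines at 0.422, while the untreated library of line 4 correlated with its own line at 0.597. Both libraries are untreated, so an exchange of the 2 would not alter a comparison of whole groups that does not pair libraries by line. The calls against the untreated group were also made without both of these libraries, which leaves 2 untreated libraries. A smaller group by itself makes calls harder to reach, and this was not separated from the doubt about the lines.

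In untreated organoids Lamb3, Lamc1 and Lama5 had the highest levels per exon length. Lamb3 stood at 286 ± 54.3 CP20M per kilobase of exon (mean ± SD, n = 4), Lamc1 at 245 ± 17.2, Lama5 at 137 ± 23.9 and Lamb2 at 36.9 ± 5.32. The ranges of Lamb3 and Lamc1 overlapped, whereas Lama5 lay below both and above Lamb2 in every untreated library. The lower levels were those of Col18a1 (13.3 ± 9.27), Col17a1 (3.33 ± 2.11), Lama3 (2.19 ± 2.20) and Lamb1 (1.13 ± 0.530), each overlapping with the next in this order. Lama1, which encodes the alpha chain of embryonic laminin and of Matrigel itself, was listed at 0 or 1 read in all 22 libraries and was not tested. The order changed with treatment for Lama5: with indirect CAP from day 2 it had the highest mean per kilobase, 526 ± 51.4 (n = 3), beside 444 ± 134 for Lamb3 and 371 ± 78.7 for Lamc1, all with overlapping ranges for neighbours. The plot of levels per exon length gives the other groups.

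**Figure D1:**
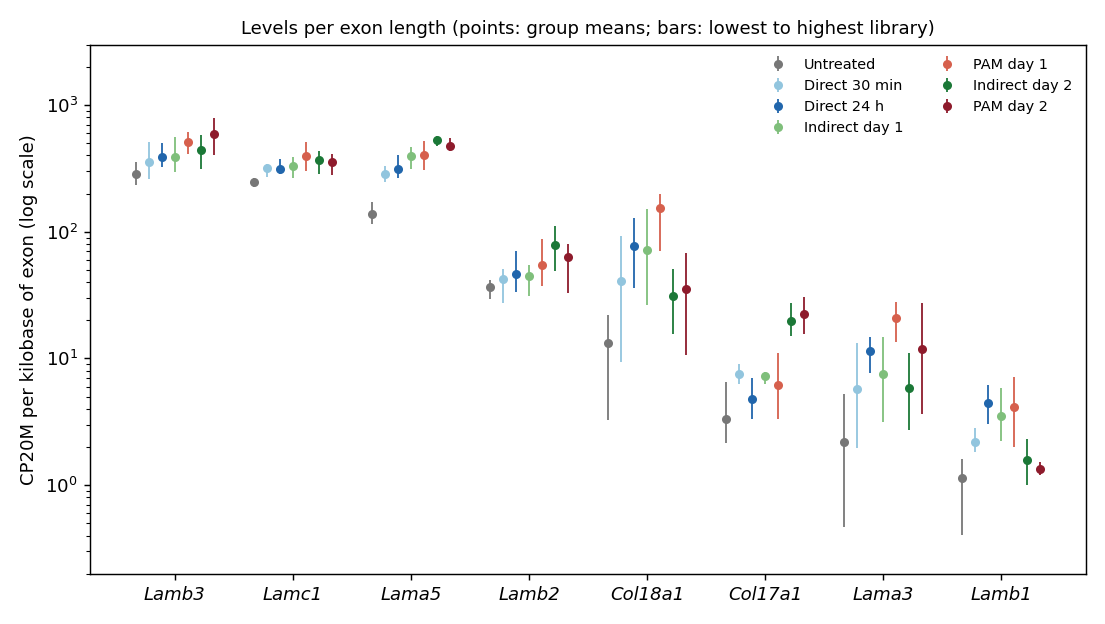
Level of each gene per kilobase of exon on a log scale, by group. Points are group means of CP20M per kilobase and bars run from the lowest to the highest library (n = 4 untreated, n = 3 in each treated group); Lama1, at 0 or 1 read, is left out. Lama5 lies at 137 in untreated and at 526 with indirect CAP from day 2.

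Genes are on the GRCm38 build. Lama5 lies at chr2:180176373-180225859 on the minus strand, Lamb1 at chr12:31265234-31329644 (plus), Lamb2 at chr9:108479736-108490530 (plus), Lamb3 at chr1:193207699-193343878 (plus), Lamc1 at chr1:153218922-153332786 (minus), Col17a1 at chr19:47646344-47692094 (minus), Col18a1 at chr10:77052178-77166548 (minus) and Lama1 at chr17:67697259-67822647 (plus). None of these shared exon bases with another annotated gene. Lama3 shared 197 bases of exon, 1.83% of its length, with the antisense gene Gm29200, which did not exceed 21 in any library, and the strand setting of the counting was not given in the sources used here.

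Windows were found for 6 of the 9 genes. The promoters of the genes with the clearest differences are shown for their contrast in base composition and motifs. They are RefSeq windows of 300 bases on GRCm38.p6, from 250 bases before to 50 after the start of the gene, written 5′ to 3′ on the gene's strand. The 4 short motifs below were searched on both strands, TGANTCA (AP-1), GGAATG (TEAD), CTTTGAT (TCF) and GGGCGG (Sp1), and no window held more than 1 of them. Capitals mark a match. The windows are chr2:180225810-180226109 for Lama5, chr19:47691993-47692292 for Col17a1, and chr10:77166481-77166780 and chr10:77113656-77113955 for an upstream and a downstream start of Col18a1.
Lama5: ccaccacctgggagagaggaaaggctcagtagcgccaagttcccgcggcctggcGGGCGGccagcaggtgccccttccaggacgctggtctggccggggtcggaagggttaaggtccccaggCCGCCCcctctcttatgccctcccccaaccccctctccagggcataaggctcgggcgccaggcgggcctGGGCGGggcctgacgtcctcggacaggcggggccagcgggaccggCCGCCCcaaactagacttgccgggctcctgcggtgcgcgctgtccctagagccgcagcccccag
Col17a1: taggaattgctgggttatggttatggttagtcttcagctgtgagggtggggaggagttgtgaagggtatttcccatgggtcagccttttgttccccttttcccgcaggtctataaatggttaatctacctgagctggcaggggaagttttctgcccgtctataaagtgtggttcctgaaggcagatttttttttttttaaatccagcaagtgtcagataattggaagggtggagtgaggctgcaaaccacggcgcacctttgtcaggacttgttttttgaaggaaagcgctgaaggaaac
Col18a1 upstream start: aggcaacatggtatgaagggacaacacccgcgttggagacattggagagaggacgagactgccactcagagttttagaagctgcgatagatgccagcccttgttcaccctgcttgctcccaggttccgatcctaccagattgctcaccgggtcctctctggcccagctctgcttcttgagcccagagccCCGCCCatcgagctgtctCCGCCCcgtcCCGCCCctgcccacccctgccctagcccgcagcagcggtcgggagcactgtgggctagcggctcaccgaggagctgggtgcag
Col18a1 downstream start: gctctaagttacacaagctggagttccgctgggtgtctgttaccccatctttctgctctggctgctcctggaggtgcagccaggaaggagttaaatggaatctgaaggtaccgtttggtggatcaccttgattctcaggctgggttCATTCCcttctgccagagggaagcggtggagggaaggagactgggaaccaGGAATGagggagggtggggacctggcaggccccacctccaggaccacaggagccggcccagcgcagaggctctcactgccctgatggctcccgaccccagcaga
The Lama5 window, with 72.7% G and C, held 4 matches to the Sp1 motif, and the upstream start of Col18a1 held 3. The downstream start of Col18a1 held 2 matches to the TEAD motif, and the Col17a1 window, with 46.3% G and C, held none of the 4. Among 32851 mouse promoter windows of this length, 35.7% held the Sp1 motif, 14.7% the TEAD motif, 7.81% the AP-1 motif and 3.73% the TCF motif. Values per gene do not tell which start of Col18a1 was used.

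Exposure to CAP for 24 h from day 1, with direct CAP, indirect CAP and PAM pooled (9 libraries against 4), was the comparison that gave most calls among these genes. At an adjusted p under 0.01 and at least a 2-fold difference, Col18a1, Lama3, Lamb1 and Lama5 rose, 4 of the 8 genes tested, and none fell. Across all genes, 4.27% passed this threshold upwards. At an adjusted p under 0.05 with no minimum difference, Lamc1 and Lamb3 were also higher, 6 of 8 beside 14.8% of all genes. The libraries of Lama5, Lamb1 and Col18a1 did not overlap between the groups, as was so with treated above untreated for 7.16% of all genes. The 9 treated libraries came from 3 lines, so that libraries of 1 line were not independent. Lama3 reached a value of 10 in 2 of 4 untreated libraries and passed the filter on low values through its treated libraries. With the untreated libraries of lines 1 and 2 left out, Lama5 alone passed either threshold.

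Each treated group was then set against the untreated libraries. After direct CAP for 30 min no gene of the 8 passed either threshold, where 0.00564% of all genes passed each upwards (4415 genes had an unadjusted p under 0.05), and 3 of 8 had all treated above all untreated libraries beside 12.4% of all genes. After direct CAP for 24 h Lama5 alone rose (1 of 8 beside 1.25%), 4 of 8 passed the looser threshold beside 7.05%, and 5 of 8 did not overlap beside 11.6%. Indirect CAP from day 1 gave 1 of 8 beside 0.831%, 2 of 8 beside 10.2% and 3 of 8 beside 16.7% by the same 3 measures, and PAM from day 1 gave 3 of 8 beside 4.83%, 6 of 8 beside 15.2% and 6 of 8 beside 17.1%. Indirect CAP from day 2 gave 2 of 8 beside 6.2%, 5 of 8 beside 20.3% and 4 of 8 beside 22.7%, and PAM from day 2 gave 3 of 8 beside 6.82%, 4 of 8 beside 18.5% and 4 of 8 beside 20.7%. When the untreated libraries of lines 1 and 2 were left out, the looser threshold was passed by Lama3, Lama5 and Col18a1 with PAM from day 1, by Lama5 with indirect CAP from day 1, and by Lama5 and Col17a1 with either medium from day 2. Every other call at that threshold was lost. The estimated differences of all 8 genes were positive in all 7 of these comparisons, where 40.3% to 52.4% of all genes were higher. The median log2 difference of the 8 genes was 1.15 in the comparison of the 9 libraries (all genes -0.05) and between 0.89 with direct CAP for 24 h and 1.38 with indirect CAP from day 1. The 7 comparisons share the 4 untreated libraries. The median over all genes lay at -0.13 with PAM from day 1 and -0.12 with PAM from day 2, and near 0 under median-of-ratios scaling, so that differences in the PAM groups are to be read against that shift. The plot of log2 fold changes sets the 6 groups side by side.

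**Figure D2:**
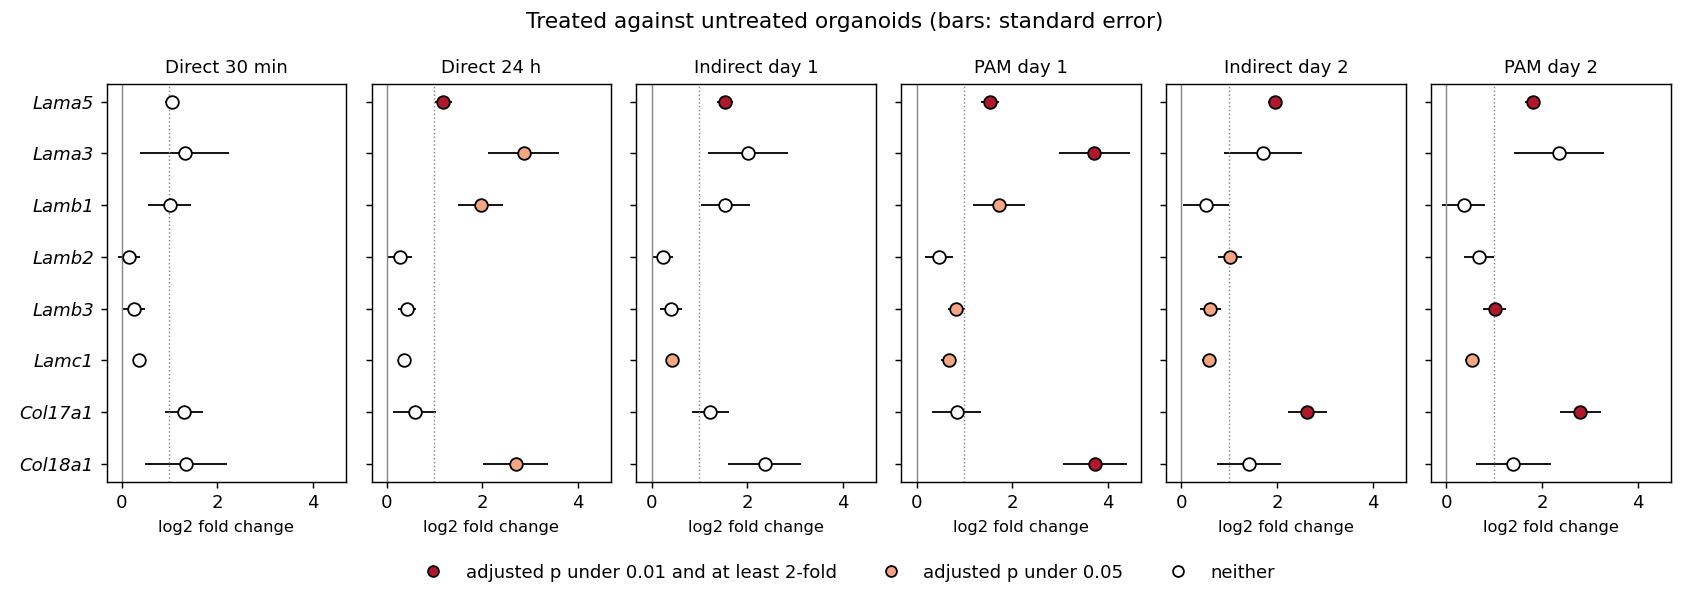
Log2 fold change of each gene against the 4 untreated libraries, on the log2(value + 1) scale, for the 6 treated groups (n = 3 each). Bars are standard errors; dark red points passed an adjusted p under 0.01 with at least a 2-fold difference, light red points an adjusted p under 0.05, and white points neither. Lama5 is dark red in 5 of 6 panels, and Col17a1 only in the 2 panels of day 2.

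Lama5, the alpha 5 chain, was higher in all 18 treated libraries than in any untreated one. Its untreated values were 1469, 1522, 1950 and 1315 CP20M in lines 1 to 4. They were 3067, 2825 and 3789 in lines 1, 2 and 4 after direct CAP for 30 min, and 4576, 3005 and 3178 after direct CAP for 24 h. The groups did not overlap with the untreated group at either time. With indirect CAP the values were 4700, 3575 and 5312 from day 1 and 6540, 5375 and 6061 from day 2. With PAM they were 5883, 3479 and 4425 from day 1 and 5029, 4976 and 6267 from day 2. Line 2 was the lowest of the 3 lines in all 6 treated groups.

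The rise of Lama5 passed the threshold in 5 of 6 groups. The log2 fold change was 1.19 ± 0.18 (SE) after direct CAP for 24 h (adjusted p = 0.00551), 1.53 ± 0.16 with indirect CAP from day 1 (adjusted p = 0.00342), 1.54 ± 0.19 with PAM from day 1 (adjusted p = 0.000588), 1.95 ± 0.13 with indirect CAP from day 2 (adjusted p = 4.98e-05) and 1.80 ± 0.15 with PAM from day 2 (adjusted p = 0.000321). After direct CAP for 30 min it was 1.05 ± 0.15 with an adjusted p of 0.1005. Without the untreated libraries of lines 1 and 2 the difference was between 1.14 and 1.90 in the 5 groups exposed for 24 h, and it passed the threshold only with indirect CAP from day 2 (adjusted p = 0.00214). In the comparison of 9 libraries it passed without them as well (log2 fold change 1.37, adjusted p = 0.00853). The call after direct CAP for 24 h was lost on leaving out the untreated library of line 1, 2 or 4 or the treated library of line 1 or 4 (adjusted p up to 0.0205). That with indirect CAP from day 1 was lost on leaving out the untreated library of line 2 or 4 or the treated library of line 1 (adjusted p up to 0.0140).

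The genes whose values over the 22 libraries were most like those of Lama5 were Malat1 (Pearson r = 0.97), Gm20417 (r = 0.97) and Gm27694 (r = 0.97), among 11799 genes with a mean value of at least 100. Malat1 is a long noncoding RNA kept in the nucleus, and Gm27694 lies inside it on the same strand, so that these values may share reads. Malat1 averaged 19850 CP20M in untreated libraries and 50062 after direct CAP for 30 min. It averaged 91075 with indirect CAP from day 2 and 98030 with PAM from day 2. The share of reads on mitochondrially encoded genes moved the other way, from 1.24% to 1.54% in untreated libraries to 0.720% to 0.826% with indirect CAP from day 2 and 0.668% to 0.880% with PAM from day 2. Their part in the level of Lama5 was not tested.

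Lama3, the alpha 3 chain, was low in untreated organoids, with values of 5, 7, 56 and 26 in lines 1 to 4. After direct CAP the values in lines 1, 2 and 4 were 21, 21 and 142 at 30 min and 128, 82 and 160 at 24 h. With PAM from day 1 they were 301, 145 and 229, the highest group mean of the gene (225 ± 78.1, SD). All libraries of direct CAP for 24 h and of PAM from day 1 lay above all untreated libraries. With indirect CAP the values were 52, 34 and 159 from day 1 and 29, 42 and 118 from day 2, and with PAM from day 2 they were 39, 49 and 294. In these 3 groups only line 4 exceeded the highest untreated library.

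Lama3 rose with PAM from day 1 (log2 fold change 3.71 ± 0.74, adjusted p = 0.00483) and in the comparison of 9 libraries (2.86 ± 0.61, adjusted p = 0.00339). After direct CAP for 24 h the difference was 2.86 ± 0.74 (adjusted p = 0.0325). With the line as a block, which leaves out line 3, the threshold was also passed after direct CAP for 24 h (3.46, adjusted p = 0.00535), with indirect CAP from day 1 (2.61, adjusted p = 0.00669), with indirect CAP from day 2 (2.30, adjusted p = 0.00239) and with PAM from day 2 (2.94, adjusted p = 0.00263). These blocked values pair the untreated libraries of lines 1 and 2, where the pairing was in doubt. Without both of those libraries the difference with PAM from day 1 was 2.46 (adjusted p = 0.0111) and that of the 9 libraries 1.61 (adjusted p = 0.120). Either of them alone was enough to lose the call in the 9 libraries (adjusted p up to 0.0177), and the call with PAM from day 1 was lost without the untreated library of line 2 or the treated library of line 1 or 4 (adjusted p up to 0.0197).

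Lamb3, the beta chain that pairs with alpha 3, was the most abundant of the beta chains. Its values in lines 1 to 4 were 1713, 1536, 1959 and 2365 without treatment. With PAM they were 3289, 2735 and 4088 from day 1 and 2649, 3832 and 5238 from day 2 in lines 1, 2 and 4. All libraries of both PAM groups lay above all untreated ones, and line 4 was the highest line in all 6 treated groups. Lamb3 rose with PAM from day 2 (log2 fold change 1.01 ± 0.23, adjusted p = 0.00907), a value close to the minimum difference. It passed the looser threshold with PAM from day 1 (0.83 ± 0.17, adjusted p = 0.00609) and with indirect CAP from day 2 (0.61 ± 0.22, adjusted p = 0.0497), calls that were lost without the untreated libraries of lines 1 and 2 (adjusted p = 0.0502 and 0.273). The call with PAM from day 2 was lost on leaving out any untreated library or the treated library of line 2 or 4 (adjusted p up to 0.0272), with no filter on low values, and without the untreated libraries of lines 1 and 2 (0.80, adjusted p = 0.0888).

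Lamb1, a beta chain that pairs with alpha 5, was near the filter limit of 10 in untreated organoids. The untreated values were 11, 4, 16 and 14 in lines 1 to 4, which stand for about as many reads. After direct CAP they were 19, 18 and 28 at 30 min and 30, 42 and 61 at 24 h in lines 1, 2 and 4. From day 1 they were 22, 24 and 58 with indirect CAP, and 20, 32 and 71 with PAM. In these 4 groups every library was above every untreated library. The values were 14, 10 and 23 with indirect CAP from day 2 and 13, 15 and 12 with PAM from day 2, which overlapped with the untreated range. Lamb1 rose in the comparison of 9 libraries (1.75 ± 0.39, adjusted p = 0.00432), and in single groups it passed only the looser threshold, after direct CAP for 24 h (1.97 ± 0.47, adjusted p = 0.0254) and with PAM from day 1 (1.73 ± 0.54, adjusted p = 0.0330). Both of these were lost without the untreated libraries of lines 1 and 2 (adjusted p = 0.112 and 0.150). Under quantile normalization the call in the 9 libraries was lost, as it was without the untreated library of line 1 (adjusted p = 0.0135), of line 2 (adjusted p = 0.0197) or of both (1.22, adjusted p = 0.0939). With all 7 groups in one fit Lamb1 passed the threshold after direct CAP for 24 h and with PAM from day 1.

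Lamb2, the other beta partner of alpha 5, did not pass the stricter threshold in any group. It had values of 178, 236, 253 and 230 without treatment. They were 680, 297 and 451 with indirect CAP from day 2 in lines 1, 2 and 4, the only group that lay wholly above the untreated libraries. There the log2 fold change was 1.01 ± 0.26 (adjusted p = 0.0138), which passed the looser threshold, though not without the untreated libraries of lines 1 and 2 (0.90, adjusted p = 0.0883). Under quantile normalization it passed the stricter one, as it did without the treated library of line 2 (1.31, adjusted p = 0.00256), and so did the difference with PAM from day 2 without line 2 (1.11, adjusted p = 0.00381). In the other 5 groups the difference was between 0.15 and 0.69 and passed neither, and line 2 had the lowest value of the 3 lines in all 6 groups.

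Lamc1, the gamma 1 chain shared by most laminins, passed only the looser threshold. Its values were 1858, 1982, 2069 and 2196 without treatment, and 17 of 18 treated libraries lay above the highest of these. The treated libraries ran from 2193, with indirect CAP from day 1 in line 2, to 4231, with PAM from day 1 in line 1. The log2 fold change lay between 0.35 and 0.67 in the 6 groups. It passed the looser threshold with indirect CAP from day 1 (0.43 ± 0.13, adjusted p = 0.0478) and from day 2 (0.58 ± 0.14, adjusted p = 0.0116), and with PAM from day 1 (0.67 ± 0.16, adjusted p = 0.0112) and from day 2 (0.53 ± 0.14, adjusted p = 0.0144). All 4 of these calls were lost without the untreated libraries of lines 1 and 2, at adjusted p = 0.215, 0.0893, 0.0859 and 0.118 in the same order.

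**Figure D3:**
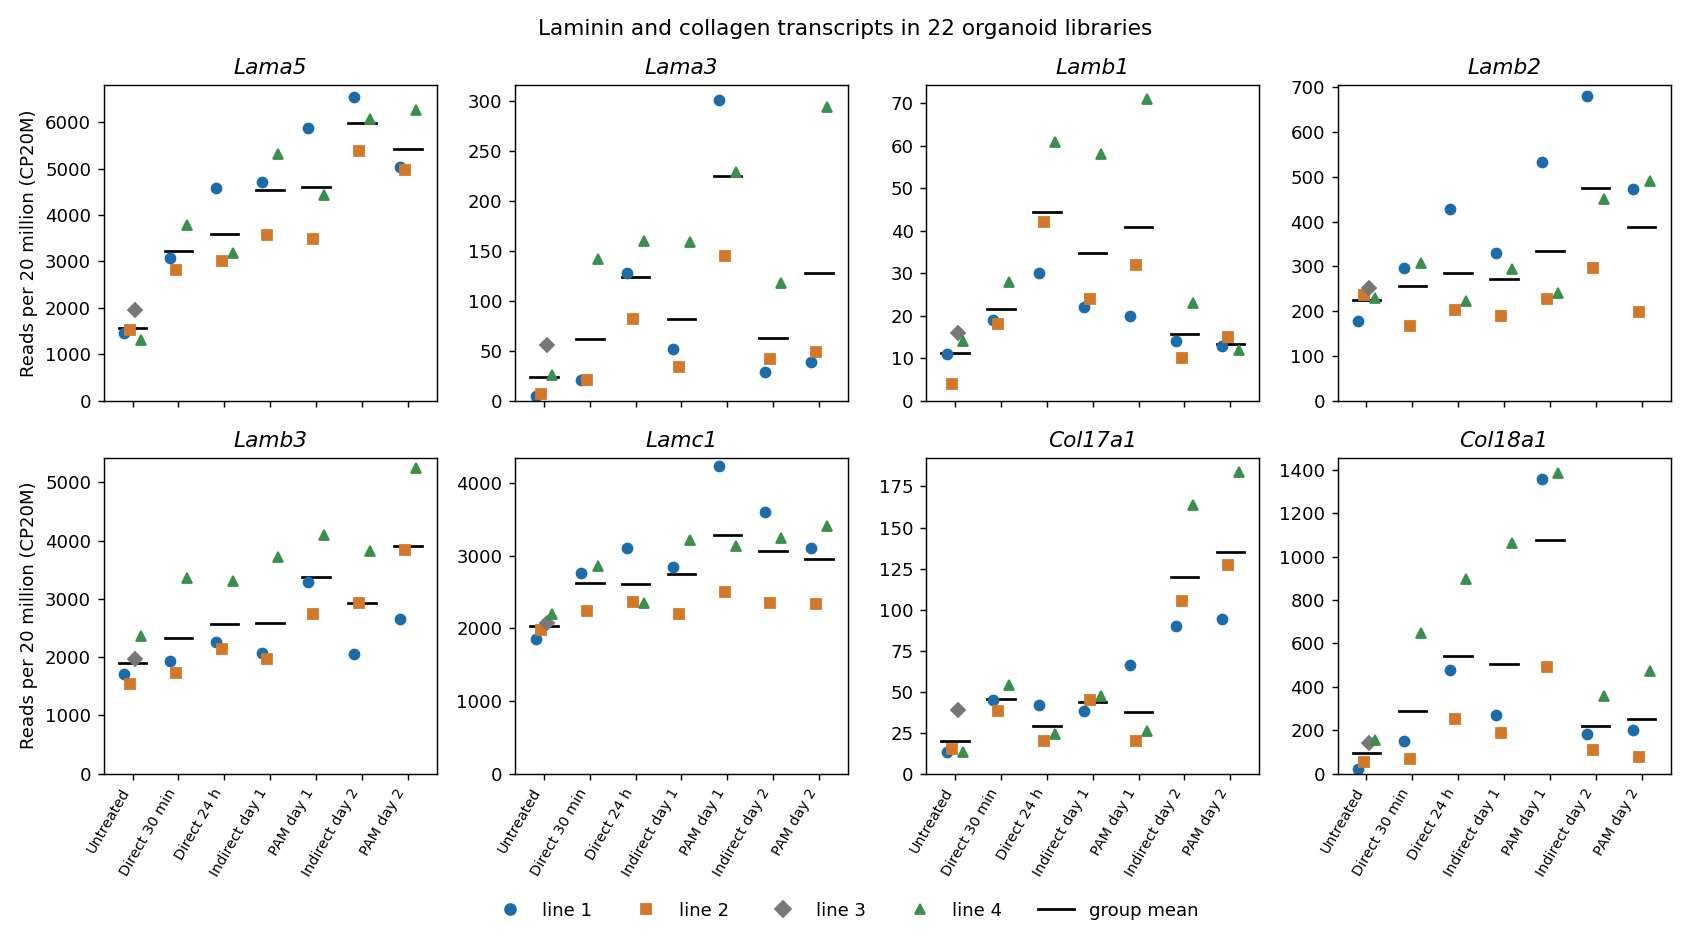
Value of 8 genes in every library, in CP20M on linear axes that start at 0, by group and organoid line. Symbols are lines 1 to 4 and black bars are group means. Lama5 lies above its highest untreated value, 1950, in all 18 treated libraries, and line 4 is the highest line for Col18a1 in all 6 treated groups.

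Col17a1, the transmembrane collagen of hemidesmosomes, rose in the groups exposed from day 2. The untreated values were 13, 15, 39 and 13 in lines 1 to 4. With indirect CAP from day 2 the values in lines 1, 2 and 4 were 90, 105 and 164, and with PAM from day 2 they were 94, 127 and 184. All 6 libraries lay above every untreated library and above every library of the groups treated at day 1. The latter ran from 20 to 66, with values of 45, 38 and 54 after direct CAP for 30 min, 42, 20 and 24 after direct CAP for 24 h, 38, 45 and 47 with indirect CAP and 66, 20 and 26 with PAM. Each of these 4 groups overlapped with the untreated libraries, of which that of line 3 was the highest.

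The log2 fold change of Col17a1 was 2.63 ± 0.41 with indirect CAP from day 2 (adjusted p = 0.00147) and 2.80 ± 0.43 with PAM from day 2 (adjusted p = 0.00149). Without the untreated libraries of lines 1 and 2 it was 2.30 (adjusted p = 0.0198) and 2.47 (adjusted p = 0.0264), no longer past the stricter threshold. Leaving out any single library kept both calls. In the groups treated at day 1 it lay between 0.59 and 1.30 and passed neither threshold. Without line 3 in the untreated group the difference with indirect CAP from day 1 was 1.59 (adjusted p = 0.0107). The genes most like Col17a1 over the 22 libraries were Megf11 (r = 0.97), Lrrtm2 (r = 0.96) and Spon1 (r = 0.95).

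Col18a1, the proteoglycan collagen, rose with PAM from day 1. Its untreated values were 23, 53, 143 and 154 in lines 1 to 4. In lines 1, 2 and 4 the values were 148, 66 and 646 after direct CAP for 30 min and 478, 251 and 895 after direct CAP for 24 h. They were 272, 185 and 1064 with indirect CAP from day 1 and 1358, 491 and 1388 with PAM from day 1. These last 3 groups lay wholly above the untreated libraries. From day 2 the values were 184, 110 and 359 with indirect CAP and 200, 75 and 475 with PAM, which overlapped with them. Line 4 was the highest and line 2 the lowest of the 3 lines in all 6 groups.

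The log2 fold change of Col18a1 was 3.73 ± 0.67 with PAM from day 1 (adjusted p = 0.00309) and 2.93 ± 0.60 in the comparison of 9 libraries (adjusted p = 0.00268). It was 2.70 ± 0.68 after direct CAP for 24 h (adjusted p = 0.0305), past the looser threshold, and 2.37 ± 0.77 with indirect CAP from day 1 (adjusted p = 0.0590). With the line as a block both of these passed the stricter one (3.02, adjusted p = 0.00757 and 2.69, adjusted p = 0.00786), while without the untreated libraries of lines 1 and 2 neither passed either one (adjusted p = 0.118 and 0.245). From day 2 the differences were 1.41 ± 0.68 with indirect CAP (adjusted p = 0.124) and 1.40 ± 0.79 with PAM (adjusted p = 0.174). Blocked by line they were 1.73 (adjusted p = 0.0204) and 1.73 (adjusted p = 0.0351). Without the untreated libraries of lines 1 and 2 the value with PAM from day 1 was 2.71 (adjusted p = 0.01001) and that in the comparison of 9 libraries 1.91 (adjusted p = 0.0882). The latter call was also lost without either of them alone (adjusted p up to 0.0139), and the call with PAM from day 1 without the untreated library of line 2 or the treated library of line 1 or 4 (adjusted p up to 0.0151). The genes most like Col18a1 were Syt16 (r = 0.97), Il33 (r = 0.96), a cytokine of epithelial cells, and Unc13d (r = 0.96).

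Exposure from day 2 was then set against exposure from day 1 within the same kind of medium. The same 3 lines were used, without the untreated libraries. By the study's design the medium was fresh for exposure from day 1, whereas that given from day 2 had been made at day 1. Cultures of both kinds ended at day 3. The start of exposure, the time since the exposure and the age of the medium therefore cannot be told apart. With indirect CAP, Col17a1 was higher from day 2 in every line, from 38, 45 and 47 to 90, 105 and 164, with no overlap. The log2 difference was 1.40 ± 0.25 (adjusted p = 0.0384), past the looser threshold, which 3.37% of all genes passed in either direction. The stricter threshold was passed by 0.0111% of all genes and by none of the 8. With the line as a block Col17a1 passed it (adjusted p = 0.000678). Leaving out any single library of the 6 gave an adjusted p between 0.0547 and 0.155.

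With PAM, Col17a1 was also higher from day 2 in every line, from 66, 20 and 26 to 94, 127 and 184, and the groups did not overlap. The difference of 1.96 ± 0.48 did not pass either threshold (adjusted p = 0.0726), nor did that of any other gene measured (0%, with 4651 genes at an unadjusted p under 0.05). With all 7 groups in one fit Col17a1 passed the stricter threshold (adjusted p = 0.00405). Col18a1 and Lamb1 moved the other way with PAM, and all day 2 libraries lay below all day 1 libraries. The log2 difference was -2.33 ± 0.70 for Col18a1 (adjusted p = 0.0970) and -1.37 ± 0.47 for Lamb1 (adjusted p = 0.126), neither past a threshold. With the line as a block Col18a1 passed the looser one (adjusted p = 0.0214).

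With indirect CAP the day 2 values of Col18a1 and Lamb1 were lower than the day 1 values in each of the 3 lines, although the groups overlapped. The log2 differences were -0.96 ± 0.69 (adjusted p = 0.475) and -1.03 ± 0.46 (adjusted p = 0.247). The blocked fit gave adjusted p = 0.00378 for Col18a1 and 0.0181 for Lamb1, past the looser threshold. Lama5 was higher from day 2 without overlap (0.42 ± 0.16, adjusted p = 0.183, blocked 0.00770). For Lama3 the lines went different ways in both media, as the plot of paired lines shows, and the differences were -0.32 ± 0.68 with indirect CAP (adjusted p = 0.832) and -1.37 ± 0.74 with PAM (adjusted p = 0.283).

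**Figure D4:**
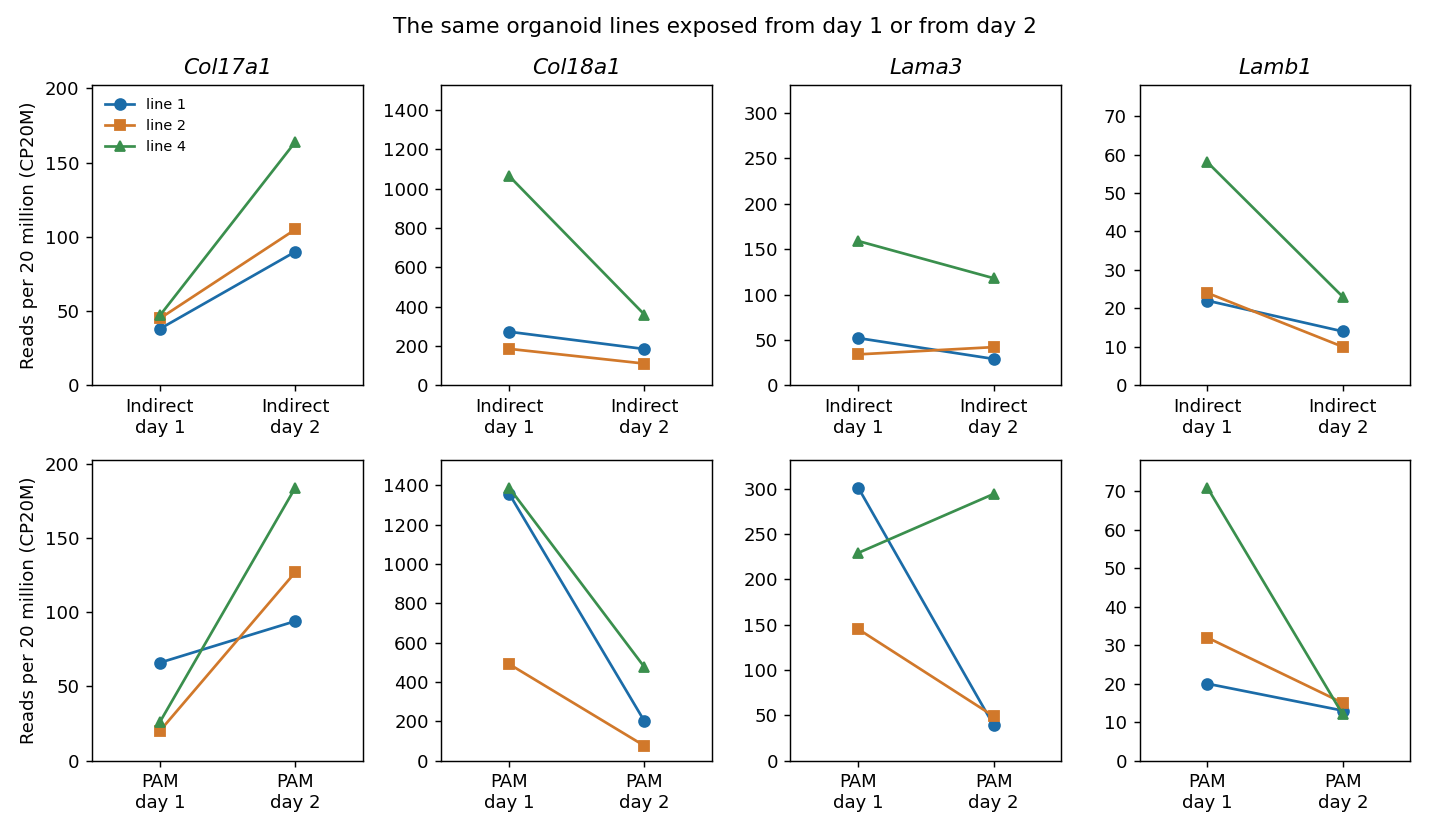
Values of 4 genes in lines 1, 2 and 4 exposed from day 1 or from day 2, in CP20M, with indirect CAP in the upper and PAM in the lower row. Lines join libraries of the same organoid line, and each gene has the same axis in both rows. Col17a1 is higher from day 2 in 3 of 3 lines with both media, while Col18a1 and Lamb1 are lower.

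Ways of applying plasma were compared within a day. None of the 8 genes passed either threshold between indirect and direct CAP for 24 h (0% of all genes by either), between PAM and direct CAP for 24 h (0%, and 0.258% at the looser threshold), between PAM and indirect CAP from day 1 (0% by either), or between PAM and indirect CAP from day 2 (0% by either). The same held for direct CAP at 24 h against 30 min (0% by either). The counts at an unadjusted p under 0.05 over all genes were 1228, 1773, 3820, 1683 and 3774 in the same order, and no call was made on them. Between PAM and indirect CAP from day 1 the estimates of Lama3 and Col18a1 were 1.70 ± 0.56 (adjusted p = 0.178) and 1.37 ± 0.69 (adjusted p = 0.289). The blocked fit placed both past the looser threshold, at adjusted p = 0.0293 and 0.0351. Col18a1 was 1.03 ± 0.54 higher with PAM than with direct CAP for 24 h (adjusted p = 0.535, blocked 0.0125). It was 1.36 ± 0.80 higher at 24 h than at 30 min of direct CAP (adjusted p = 0.331, blocked 0.0207). For Lamb1 that difference was 0.97 ± 0.35 (adjusted p = 0.207), with no overlap between the groups, and for Lama3 it was 1.55 ± 0.71 (adjusted p = 0.249).

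Lines differed within every treated group. Line 4 was the highest line in 6 of 6 groups for Col18a1 and Lamb3 and in 5 of 6 for Lama3 and Lamb1. Over its 6 treated libraries the geometric mean of Col18a1 was 725 in line 4, against 314 in line 1 and 152 in line 2, and that of Lama3 was 175 against 60.6 and 51.1. For Lama5 and Lamc1 line 4 and line 1 each were highest in 3 of 6 groups. By passage, lines 1 and 2 match the lines from male mice that the study lists for this experiment. Line 4, at the lower passage, would then be from a female mouse, listed at passage 2 where the label gives 4. Mouse, sex and passage cannot be told apart.

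As a description over 22 libraries that share groups and lines, Lama3 and Col18a1 were the pair most alike (Pearson r = 0.92, Spearman rho = 0.89), and after removal of the group means r was 0.88. Lamb2 and Lamc1 followed (r = 0.85, 0.93 within groups). Lama5 was most like Col17a1 (r = 0.81) and Lamc1 (r = 0.81). Lama3 and Lamb3, whose proteins share a trimer, had an r of 0.80. Of the beta partners of alpha 5, Lamb2 had an r of 0.66 with Lama5 and Lamb1 an r of 0.29. Col17a1 and Col18a1 had an r of 0.17.

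Other genes of the basement membrane, from a list of 20, moved in both directions. In the comparison of 9 libraries 15 were tested, and 4 rose (Nid1, Tinagl1, Col4a5 and Npnt) while Hspg2 and Ntn4 fell, beside 4.27% of all genes that rose and 2.07% that fell. Of these 6 genes, Ntn4 alone passed without the untreated libraries of lines 1 and 2 (-1.45, adjusted p = 0.00244). Col4a5, like Lama3, passed the filter on low values through treated libraries. It was not tested after direct CAP for 30 min or with indirect CAP from day 2. Hspg2, which encodes perlecan, the main heparan sulfate proteoglycan of basement membranes, fell by 1.30 on the log2 scale (adjusted p = 0.00355). Ntn4 encodes netrin 4, which binds laminin gamma chains and loosens laminin networks, and it fell by 1.44 (adjusted p = 2.4e-05). Its mean was 720 in untreated libraries and between 178 and 290 in the 5 groups exposed for 24 h. The median log2 difference of the 15 tested was 1.08.

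Col7a1, the collagen of the anchoring fibrils beneath hemidesmosomes, rose in both groups from day 2, as Col17a1 did. Col7a1 averaged 23.5 in untreated libraries, 121 with indirect CAP from day 2 (log2 fold change 2.33, adjusted p = 0.000103) and 181 with PAM from day 2 (2.84, adjusted p = 0.000412). It also passed the looser threshold with PAM from day 1 (0.91, adjusted p = 0.0199) and in the comparison of 9 libraries (0.74, adjusted p = 0.0269), where Col17a1 did not. With indirect CAP from day 2, 14 of the 20 were tested, 3 rose (Col7a1, Tinagl1 and Col4a4) and Ntn4 fell, and with PAM from day 2, of 15 tested, 3 rose (Col7a1, Tinagl1 and Col4a5) and Hspg2, Ntn4 and Frem2 fell. Col4a4 and Col4a5 passed the filter on low values here through their treated libraries. Of all genes, 6.2% rose and 5.71% fell with indirect CAP from day 2, and 6.82% rose and 10.5% fell with PAM from day 2. With those of lines 1 and 2 left out of the untreated group, Col7a1 alone of the 14 passed with indirect CAP (2.25, adjusted p = 0.00300) and none of the 15 with PAM, where Col7a1 was at 2.76 (adjusted p = 0.0132).

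Laminin receptors and hemidesmosome genes formed a list of 11, all tested. In the comparison of 9 libraries Bcam, a receptor of the alpha 5 chain, rose (1.19, adjusted p = 0.000495), as did Itgb4, the integrin beta 4 of hemidesmosomes (1.04, adjusted p = 0.000731), 2 of 11 beside 4.27% of all genes. At the looser threshold 7 of the 11 were higher, beside 14.8% of all genes, and Dag1, which encodes dystroglycan, was lower, beside 18.7%. With PAM from day 2, Itga3, Plec and Dst rose, 3 of 11 beside 6.82%. At the looser threshold 5 of the 11 were higher there, beside 18.5%. Sdc4, Itga6 and Dag1 were lower, beside 5151 of 17694 genes, also without the untreated libraries of lines 1 and 2. With indirect CAP from day 2, 6 of the 11 were higher at that threshold, beside 20.3%, and the same 3 were lower, beside 4196 of 17860 genes. With PAM from day 1, Bcam, Itgb4, Plec and Dst rose, 4 of 11 beside 4.83% of all genes, and none fell. Without the untreated libraries of lines 1 and 2, Itgb4, Plec and Dst kept this call. None of the 11 then passed the stricter threshold in the 9 libraries or with either medium from day 2. Bcam, Itgb4, Itga3, Plec and Dst passed the looser one in the 9 libraries (adjusted p between 0.0234 and 0.0495), as did Sdc1. Of the genes that fold and modify collagen, none of 9 tested passed either threshold in the 9 libraries. P4ha2, a prolyl hydroxylase, rose with indirect CAP (1.13, adjusted p = 0.00296) and PAM (1.41, adjusted p = 0.00205) from day 2. It was 1 of 8 tested in each, beside 6.2% and 6.82% of all genes. Without the untreated libraries of lines 1 and 2 the call with indirect CAP was kept (adjusted p = 0.00620) and that with PAM was not (adjusted p = 0.0140). Of 8 proteases tested in the 9 libraries, Ctsl alone rose (1.92, adjusted p = 0.000339), 1 of 8 beside 4.27% of all genes. Without the same untreated libraries Ctsl passed the looser threshold (1.36, adjusted p = 0.0183). It encodes cathepsin L, which can cut type XVIII collagen.

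Markers of other cell types were read beside these values. Of the squamous keratins Krt5 rose in the comparison of 9 libraries (1.78, adjusted p = 0.000439) from a mean of 11.2 to 41.3, and Trp63 stayed between a mean of 2.33 and 4.00 in all groups. Krt14, the other squamous marker tested there, had a log2 difference of 1.90 and passed neither threshold. The sum of 4 squamous markers was 16 to 38 in untreated and 30 to 133 in treated libraries. Cd68, a lysosomal marker of macrophages, rose from 21.5 to 56.4 (1.35, adjusted p = 0.000427), while Ptprc, the pan-leukocyte marker, averaged at most 5.00 in every group. Csf1r passed the looser threshold only with indirect CAP from day 2, a call lost without the untreated libraries of lines 1 and 2. When the untreated libraries of lines 1 and 2 were removed, both Krt5 (adjusted p = 0.0151) and Cd68 (adjusted p = 0.0151) passed the looser threshold only. Their part in the laminin and collagen results was not tested. In a bulk library, more cells of a type and more RNA per cell cannot be told apart.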

How the data were processed

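RNA-seq of 22 libraries of mouse duodenal organoids was analysed. Per the submitters' processing notes and the study's methods, reads (Ovation SoLo kit, paired ends of 100 bases) were processed with Trimmomatic 0.36, STAR 2.5.3a and HTSeq 0.9.1 on GRCm38.p4. The authors scaled read counts to 20000000 per library and rounded each up, a score rather than a count, so count tests were not run. Positions and exon lengths are from GENCODE vM21.

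Log2(value + 1) was tested with limma 3.58.1 (trended moderated test, two-sided, R 4.3.3) with Benjamini-Hochberg adjustment over all genes that reached 10 in 3 or more fitted libraries. Only the groups compared entered a fit, and calls needed an adjusted p under 0.01 with a 2-fold difference. Fold changes on this scale understate those of low genes. On simulated data 200 of 200 changed genes were found with 9 against 4, 3 against 4 and 3 against 3 libraries. False calls numbered 0, 4 and 1 in the same order. Detection of differences near 2-fold, or of genes as low and as variable between lines as Lama3, Lamb1 and Col17a1, was not tested. The simulated libraries were independent and had no differences between lines. The numbers of false calls therefore do not cover libraries that share a line, as in the comparison of 9 libraries. Depth was estimated from the spacing of low values, to within 3.42% in 20 simulated libraries. The depth estimate bears on counting error only. No pair of replicates (24 pairs) had more than 0.768% equal values among genes of 50 or more.

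Libraries of the same line come from the same mouse, and their median correlation after removal of group means was 0.536, against -0.306 between lines. Alternatives were quantile normalization, median-of-ratios scaling, no filter, a larger pseudocount (10), the line as a replicate block, a single fit of the 7 groups, an adjusted p under 0.05 without a minimum difference, and leaving out each library. The untreated libraries of lines 1 and 2 were left out together after seeing the data. All 9 genes of the rule were named, and the 3 genes of highest correlation with each. The genes and lists were chosen with earlier results of these data known. Laminin chain genes outside the 9 are not reported here. Drawing was done in Python 3.11.15 with matplotlib 3.10.9.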

Additional observations from a re-analysis of the deposited data

Results flagged for a closer look

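Col17a1 in the untreated group had 1 library far from the other 3: line 3 had a value of 39 beside 13, 13 and 15, and the gap between it and the next was 0.923 of the range. Lama1 met the same criterion (1.0) because 1 of the 4 untreated libraries held 1 read and the others 0. Chance alone marks about 1 in 20 groups. Col17a1 also differed between exposure to indirect CAP from day 2 and from day 1 by 1.40 on the log2 scale (limma, adjusted p = 0.0384), with all 3 lines higher from day 2.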

How the results depend on the processing

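These counts of the 8 genes past the threshold moved by more than 1.5 times. Against untreated organoids, direct CAP for 24 h gave 1 gene, 2 with all 7 groups in one fit, 3 with the replicate block, 4 at an adjusted p under 0.05 without a minimum difference, and 0 without the untreated libraries of lines 1 and 2. Indirect CAP from day 1 gave 1, with the replicate block 3, at the looser threshold 2, and 0 without those libraries. PAM from day 1 gave 3, at the looser threshold 6 and without those libraries 0. Indirect CAP from day 2 gave 2, at the looser threshold 5 and without those libraries 1. PAM from day 2 gave 3, and 0 without them, and the comparison of 9 libraries gave 4, and 1 without them. Between treated groups, indirect CAP from day 2 against day 1 gave 0, with the replicate block 1 and at the looser threshold 1, and PAM from day 2 against day 1 gave 0, and 1 with all groups in one fit. The causes were not tested, except that leaving out libraries leaves fewer samples. Leaving out 1 library at a time gave 1 to 4 genes in the comparison of 9 libraries, 0 to 1 after direct CAP for 24 h, 0 to 1 with indirect CAP from day 1, 1 to 3 with PAM from day 1, 2 to 3 with indirect CAP from day 2 and 2 to 3 with PAM from day 2. Over all genes, leaving out both untreated libraries took the calls from 1173 to 148 (9 libraries), 376 to 0 (direct CAP for 24 h), 233 to 0 and 1775 to 866 (indirect CAP and PAM from day 1) and 2127 to 1057 and 3063 to 1 (from day 2). The replicate block took them from 0 to 200 for direct CAP at 24 h against 30 min, 2 to 623 for indirect CAP from day 2 against day 1 and 0 to 58 for PAM against direct CAP, and one fit of all groups took PAM from day 2 against day 1 from 0 to 882 and the same contrast of indirect CAP from 2 to 61. Beyond the blocked values given with the results, the replicate block changed no other call at the stricter threshold.

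The sign of a difference changed in 6 cases, all near 0 and of genes past no threshold there. Leaving out 1 library at a time, the difference after direct CAP for 30 min ran from -0.0018 to 0.44 for Lamb2 and from -0.036 to 0.44 for Lamb3, the lowest without line 4. For Lamb2 after direct CAP for 24 h it ran from -0.067 (without treated line 1) to 0.47, and for Lamb1 with PAM from day 2 from -0.024 (minus untreated line 2) to 0.56. With both untreated libraries left out, Lamb1 was at -0.16 with PAM and at -0.013 with indirect CAP from day 2. Precision is limited by 3 libraries a group and, for Lamb1, Lama3 and Col17a1, by values near 10 in untreated organoids.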
